A study of Sus scrofa with 20 samples.

Results

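The effect of silencing polycystin-1 (PC1) was followed across the whole transcriptome of a kidney tubule cell line. Compared were the 5 libraries from cells given an siRNA against PC1 (siPC1) and the 4 from cells given a non-related control siRNA (siNR), which are 9 of the 20 libraries of the series, and every transcript in the deposited table was considered. PC1, the product of PKD1, is a large membrane protein that assembles with the channel protein polycystin-2 (PC2) at the primary cilium and other membranes. Loss of either protein causes autosomal dominant polycystic kidney disease, in which tubules widen into cysts and the tissue between them becomes fibrotic. In tubule epithelium the polycystins are known to affect calcium handling, cell division, metabolism and the actin cytoskeleton.

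The cells were LLC-PK1, an established epithelial line from pig proximal tubule, which the study used as a single clone. All groups were transfected with RNAiMax below full confluency, kept without serum for the last 24 h and harvested at 48 h, and neither arm carried a genetic change. The remaining libraries came from cells given an siRNA against PC2 (siPC2, 3 libraries) or an siRNA against PC1 or PC2 together with one against MRTFA, a cofactor of serum response factor (4 libraries each, named siPC1+siMRTFA and siPC2+siMRTFA here). They entered the same statistical model and otherwise appear only beside single transcripts. The siRNA concentration stated for the RNA-Seq was higher in the siNR group than in the siPC1 group, although the methods describe the control as matched in each experiment, and any difference in concentration cannot be told apart from the target. The group sizes given with the study's experimental scheme differ from those of the labels, and the labels were followed.

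The measure was the estimated count of each Ensembl transcript, obtained from poly(A)-selected RNA. The table listed 46295 transcripts, of which 10890 had a count of 0 in all 9 libraries. Identifiers were not paired with gene names in any table used here (0 matched), so transcripts are described by abundance and behaviour, only 4 are identified, and the depletion of PKD1 mRNA and the markers of proximal tubule were not analysed here. Total counts lay between 35523119 and 50599683 for siNR and between 27984233 and 46931877 for 4 of the siPC1 libraries, whereas siPC1 replicate 1 had 4421030. A normalized count (the count scaled to a common library size with edgeR's TMM factors) of 100 therefore rested on 12.8 reads in siPC1 replicate 1 and on 72.8 to 122 reads in the other 8 libraries. The labels do not say whether replicate libraries came from separate cultures, so the p-values measure the spread between libraries of a group, which may be technical. In the edgeR model this spread was estimated over all 20 libraries.

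A large part of the transcriptome differed, in both directions, between siPC1-transfected and siNR-transfected cells. Of 27702 transcripts with enough counts to be tested, 4142 were raised (15%) and 3645 were lowered (13.2%) in siPC1-transfected relative to siNR-transfected cells (edgeR's quasi-likelihood test, Benjamini-Hochberg adjusted p of at most 0.05, absolute log2 fold change above 0.6, mean normalized count over the 20 libraries of at least 50). The minimum count was met by 20212 transcripts, and 38.5% of these were called. Most changes were moderate. The median log2 fold change was 1.02 among raised transcripts and -0.998 among lowered ones, and 48.3% of the rises and 50.2% of the falls did not exceed 1 on the log2 scale.

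Among called transcripts the response was asymmetric in its tail. A log2 fold change beyond 2 was reached by 535 raised and 287 lowered transcripts, and one beyond 4 by 125 raised and 25 lowered transcripts. Of those beyond 4, 42 raised transcripts had 0 counts in all siNR libraries and 4 lowered ones had 0 counts in all siPC1 libraries, and their fitted fold changes depend on the prior count. The 90th percentile of the rises was 2.28, whereas the 10th percentile of the falls was -1.87. The excess of large rises was present with DESeq2 (515 against 295 beyond 2), with library totals in place of TMM factors (627 against 217), with a model of the 9 libraries alone (455 against 311), without siPC1 replicate 1 (556 against 294) and without siPC1 replicates 1 and 4 together (527 against 296). The minimum mean over 20 libraries, of which 4 are siNR, is met less easily by a transcript high in siNR cells alone. Without this minimum the excess was smaller in proportion, at 886 against 636 beyond 2 and 308 against 181 beyond 4. The split of all calls was more dependent on scaling. Raised transcripts made up 53.2% of the calls with TMM factors, 49.8% with DESeq2 and 64.6% with library totals, which moved the median log2 fold change of all tested transcripts from 0.02 to 0.15.

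**Figure D1:**
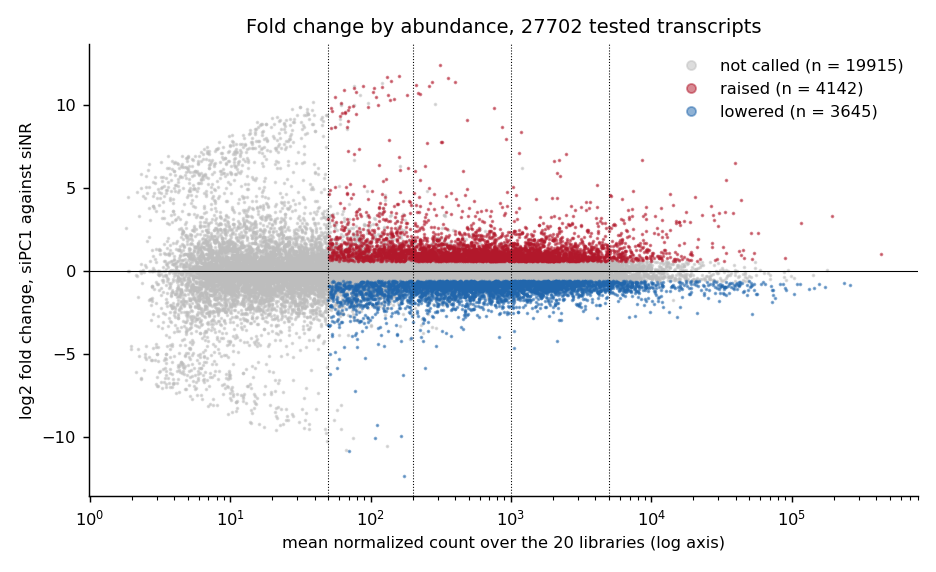
Log2 fold change of siPC1 against siNR (vertical axis) for each of 27702 tested transcripts, by mean normalized count over the 20 libraries (horizontal log axis), with raised transcripts in red, lowered in blue, those not called in grey and the limits of the abundance classes as dotted lines. Called rises beyond 4 on the log2 scale (125 transcripts) outnumber called falls beyond -4 (25 transcripts), and transcripts under a mean of 50 are not called by rule.

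To describe the response by abundance, the tested transcripts were divided into 5 classes by mean normalized count over the 20 libraries, and the same p and fold thresholds were applied without the minimum mean. The share that changed rose from class to class. It was 15.6% of 7490 transcripts under 50, 33.0% of 4838 between 50 and 200, 38.9% of 8032 between 200 and 1000, 40.7% of 6044 between 1000 and 5000, and 46.7% of 1298 at 5000 and above. The precision of the fold change rose in parallel, since the median standard error was 0.95 on the log2 scale in the lowest class, 0.33 and 0.15 in the next classes and 0.10 in both of the highest. Rarer transcripts therefore often passed the fold threshold without passing the test, with 1721 above 0.6 and 1823 below -0.6 in the lowest class, compared with 1 and 2 in the highest. The reverse was found for abundant transcripts, as 1973 of those between 1000 and 5000 and 422 of those at 5000 and above passed the test with a fold change inside the threshold.

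The size of the change followed another course. The median absolute log2 fold change was 0.90 under 50, 0.67 between 50 and 200, 0.52 between 200 and 1000 and 0.49 between 1000 and 5000, and it was 0.57 in the most abundant class. In the lowest class this value lay below the median standard error, so that much of it was not distinguishable from error. That error takes in the spread between libraries as well as counting. In the highest class the median absolute log2 fold change was well above the median standard error. Among called transcripts, the median rise fell from 2.42 in the lowest class to 1.24, 0.98 and 0.94 in the next ones and was larger again in the highest, at 1.195, whereas the median fall was -2.38, -1.26, -1.01, -0.91 and -0.92.

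Direction also differed by abundance. Raised transcripts outnumbered lowered ones between 50 and 200 (17.8% against 15.2%), between 200 and 1000 (20.8% against 18.1%) and between 1000 and 5000 (22.4% against 18.4%), but with DESeq2 the order turned between 200 and 1000 (19.8% raised, 20% lowered). Under 50 the shares were 7.90% and 7.74%. At 5000 and above the order was the opposite, with 20% raised and 26.7% lowered, and the median log2 fold change of this class was -0.17 compared with 0.06 in the class below it. That order held with DESeq2 (19.4% raised, 30.3% lowered) and without siPC1 replicates 1 and 4 (21.0% and 25.7%) but flipped with library totals (24.5% and 20.3%). With classes by the unweighted mean of the siNR and siPC1 group means, 16.2% rose and 31.6% fell at 5000 and above. The shares were then 20.7% and 19.8% between 1000 and 5000, and 8.98% and 6.71% under 50. In the highest of 5 classes of equal size, from a mean of 1413, 21.8% rose and 20.3% fell. Direction by abundance thus rests on the scaling and on the class rule.

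With classes set by the mean over the 20 libraries, large changes in the highest class were mostly rises. In the highest class 69 transcripts rose by more than 2 on the log2 scale and 10 fell by as much, and 10 rose by more than 4 while 0 fell by as much. Between 1000 and 5000 these counts were 114 and 43 beyond 2 and 15 and 2 beyond 4. Under 50 they were nearly even, at 351 and 349 beyond 2 and 183 and 156 beyond 4. Most of the 20 libraries came from silenced cells, so a large rise can move a transcript up in class and a large fall can move it down. These counts therefore depend in part on the class rule, and they were not repeated under another rule.

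**Figure D2:**
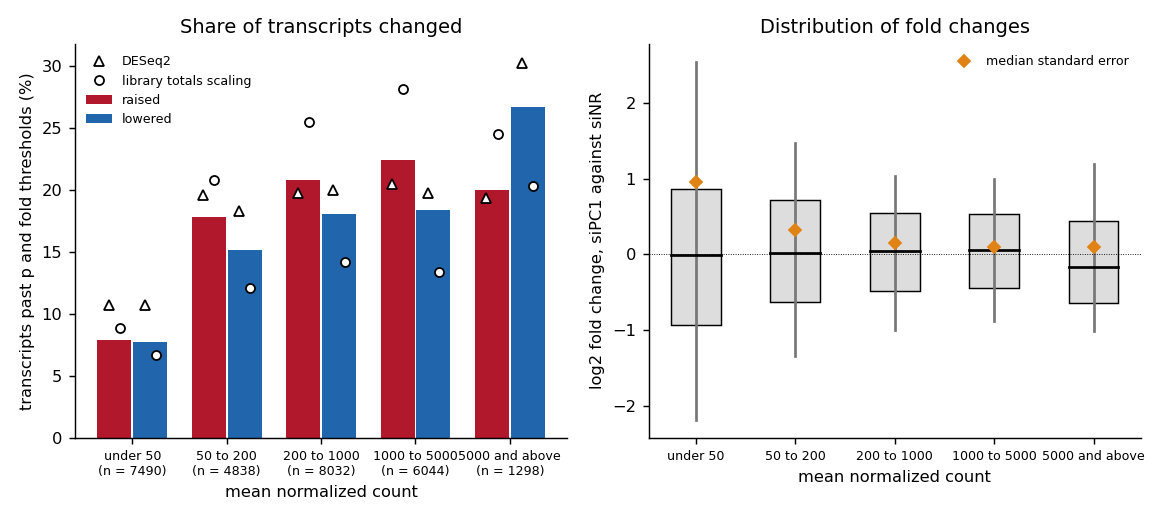
Left, percentage of tested transcripts raised (red bars) and lowered (blue bars) in each class of mean normalized count, with the same percentages from DESeq2 (triangles) and from library totals as scaling (circles). Right, median (line), quartiles (box) and 10th to 90th percentiles (whisker) of the log2 fold change in each class with the median standard error (diamond); at 5000 and above 20% rose and 26.7% fell, and the circles show the opposite order there.

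The same change can be read from the makeup of each library. Transcripts called raised held 8.83% to 10.6% of the normalized counts in the 4 siNR libraries and 25.1% to 26.4% in the 5 siPC1 libraries. Transcripts called lowered held 39.5% to 42.9% in the siNR libraries and 21.7% to 23.7% in the siPC1 libraries. These transcripts were selected on the same libraries, so the values describe the size of the shift and no test was made. Raised transcripts gained 16.1 percentage points on average and lowered ones lost 18.8, and 56.0% of the gain and 69.1% of the loss came from transcripts at 5000 and above. The gain was spread over many transcripts, since the 10 with the largest gains carried 18.2% of it and 167 were needed to reach 50%, and for the loss these values were 14.7% and 101.

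**Figure D3:**
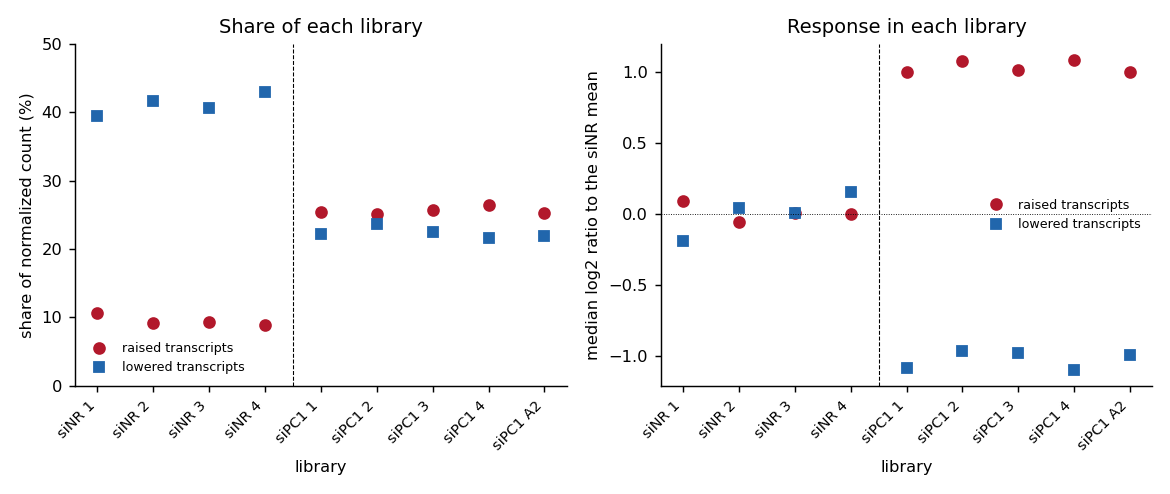
For each of the 9 libraries (horizontal axis, siNR left and siPC1 right of the dashed line), the share of normalized counts held by raised (red circles) and lowered (blue squares) transcripts in percent (left), and the median log2 ratio of these transcripts to the siNR mean, taken for an siNR library over the other 3 (right). Shares of raised transcripts run from 8.83% to 10.6% in siNR and from 25.1% to 26.4% in siPC1 libraries.

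The distribution of reads over transcripts was compared by 9 measures per library. Mean shares of the most abundant transcripts were lower in the siPC1 group, but 0 of the 9 differences passed correction and 4 had an unadjusted p below 0.05 (exact permutation test). The 20 most abundant transcripts of a library held 9.76% ± 0.672 (SD, n = 4) of the counts in siNR and 8.25% ± 0.669 (SD, n = 5) in siPC1 libraries, with overlapping ranges (exact two-sided permutation test, p = 0.0317, adjusted p = 0.0713). For the 100 most abundant transcripts the shares were 23.6% ± 1.26 and 19.1% ± 1.32, and the groups did not overlap (exact p = 0.0159, the smallest that 4 against 5 libraries allow, adjusted p = 0.0713). The class at 5000 and above held 56.1% ± 1.54 of the normalized counts in siNR and 52.5% ± 1.56 in siPC1 libraries (exact permutation test, p = 0.0317, adjusted p = 0.0713), and the class between 1000 and 5000 held 31.7% ± 0.753 and 34.6% ± 0.946 (exact p = 0.0159, adjusted p = 0.0713). Shares of the 3 lower classes had adjusted p-values between 0.229 and 0.968 in the same exact test. With classes by the unweighted mean of the 2 group means, the highest class held 57.2% ± 1.6 in siNR and 52.2% ± 1.54 in siPC1 libraries (exact permutation p = 0.0159, not corrected). The smallest p that these libraries allow leaves little room to pass correction over 9 measures. Failure to pass therefore does not show that the groups were alike.

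The number of transcripts detected did not separate the groups. After every library was thinned to 4421030 counts, the total of siPC1 replicate 1, an siNR library held 25315 ± 453 (SD, n = 4) transcripts with at least 1 count and an siPC1 library 24882 ± 1181 (SD, n = 5; exact permutation p = 0.73). The siPC1 mean was drawn down by replicate 1, which had 22865, while the other 4 siPC1 libraries had 24902 to 25899 and the siNR libraries 25034 to 25992. With at least 5 counts the means were 20341 and 20442 (exact permutation p = 0.714). Thinning removes reads but not other differences between a shallow and a deep library, whose part was not tested.

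Detection in one group alone was rare. Of all listed transcripts, 34 had 0 counts in all 4 siNR libraries and at least 1 count in all 5 siPC1 libraries, and 79 showed the reverse pattern. Set against the 3 counts that a group total of 0 allows, the siPC1 level was at least 607-fold higher for the most extreme of the 34 and at least 32.2-fold higher at their median. For the 79 absent from the siPC1 libraries, the siPC1 level was at least 837-fold lower for the most extreme and at least 8.25-fold lower at the median. These bounds cover counting error only. The count of 34 was limited by siPC1 replicate 1, without which 102 transcripts met the condition, and the count of 79 became 86.

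Consistency was examined library by library. The groups separated completely, with all 5 siPC1 libraries above all 4 siNR libraries, in 5216 of the tested transcripts (18.8%), and with all siPC1 libraries below all siNR libraries in 5371 (19.4%). Among the called transcripts 87.1% of the raised and 92.6% of the lowered ones were separated in this way. Of the 534 raised transcripts that overlapped, 182 did so through siPC1 replicate 1 alone and 118 through siPC1 replicate 4 alone, and of the 270 lowered ones 82 and 54. Separation became more frequent with abundance. For raised transcripts it held in 50.3% of those called under 50, 74.9% between 50 and 200, 84.5% between 200 and 1000, 96.1% between 1000 and 5000 and 97.3% at 5000 and above. Without the shallow siPC1 replicate 1, the first of these shares was 70.3% and the last 97.7%. Over all tested transcripts, leaving it out added more upward than downward separations in every class. Between 200 and 1000 they went from 1835 up and 1841 down to 2133 and 1996. The small excess of downward separations therefore depends on that library.

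The response was of like size in each siPC1 library. The median log2 ratio of raised transcripts to the siNR mean lay between 0.99 and 1.08 in the 5 libraries, and that of lowered transcripts between -1.10 and -0.96. In each siPC1 library 94.5% to 98.4% of the raised transcripts stood above the highest siNR library, and 96.9% to 99.2% of the lowered ones stood below the lowest. These transcripts were called on the same libraries, so the values describe how evenly the called changes were shared and no test was made. Distances between whole libraries gave the same picture without using the calls. Between 21.4% and 26.8% of the normalized counts would have to be moved among transcripts to turn an siNR library into an siPC1 library (20 pairs), compared with 4.52% to 9.17% between siNR libraries (6 pairs) and 4.79% to 11.3% between siPC1 libraries (10 pairs). The 3 largest distances within siPC1 all involved replicate 4 and ran from 9.99% to 11.3%.

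The spread between replicates was alike in the groups once the shallow library was left out. Between 200 and 1000 normalized counts, the median SD of a transcript on the log2 scale was 0.20 over the siNR libraries and 0.26 over the siPC1 libraries, or 0.22 without siPC1 replicate 1. Under 50 the values were 0.79, 1.59 and 0.84. At 5000 and above they were 0.17, 0.16 and 0.15. The larger spread of rare transcripts within the siPC1 group thus came with replicate 1.

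A core of transcripts kept its call whichever library was left out. In all 9 fits that each lacked 1 siNR or siPC1 library, 3388 of the raised (81.8%) and 3049 of the lowered transcripts (83.6%) were called in the same direction, and 0 were called in the opposite one in any alternative fit. The core made up 75.6% of raised transcripts between 50 and 200 and 94.2% of those at 5000 and above. Leaving out siNR replicate 4 cost the most calls, with 348 raised and 281 lowered transcripts lost, while leaving out siPC1 replicate 1 cost 160 and 161. With DESeq2 and library totals added as conditions, 3356 raised and 2683 lowered transcripts remained, the larger loss among lowered transcripts being that of the library totals, which called 2790 lowered.

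A strict measure of consistency is the ratio between the nearest libraries of the groups, computed after adding 1 to each normalized count. For a raised transcript this is the lowest siPC1 over the highest siNR library. It was at least 2 for 769 raised and 648 lowered transcripts, at least 4 for 182 and 87, and at least 8 for 68 and 19. These counts are for called transcripts, which must meet the minimum mean over the 20 libraries. Over all tested transcripts, called or not, a ratio of at least 2 was reached by 891 that were higher and 890 that were lower. A ratio of at least 4 was reached by 236 and 185. Under 50 normalized counts the lower ones were the more frequent, with 235 against 119. Most of the 20 libraries came from silenced cells, so a large fall can move a transcript down into this class. Separation by any ratio was found in this class for 344 higher and 641 lower transcripts. Without the shallow siPC1 replicate 1 these counts were 614 and 747, and the ratio was not recomputed without that library.

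The 25 largest rises among called and separated transcripts counted in all 9 libraries spanned log2 fold changes of 4.56 to 7.08 with standard errors of 0.17 to 0.47. They included 6 transcripts between 50 and 200, 4 between 200 and 1000, 8 between 1000 and 5000 and 7 at 5000 and above, and their median normalized count was 34.7 in siNR and 1818 in siPC1 cells. Each siPC1 library carried these rises, as their selection by separation requires, with medians of 4.73 to 5.44. The 25 largest falls spanned -4.91 to -2.93. By mean over the 20 libraries, 16 of them lay between 50 and 200 and 0 at 5000 and above. Their median normalized count was 453 in siNR cells, above that of the rises, and 36.1 in siPC1 cells. The library medians of the falls ran from -3.69 to -3.13. For 7 of the 25 falls and 2 of the 25 rises the estimated counts were whole numbers in all 9 libraries, exactly and with no tolerance, as they are where no reads are divided with other transcripts. The rule of a count in all 9 libraries limits falls through the shallow siPC1 replicate 1, where a read stands for more normalized counts than elsewhere. Ranked instead by the ratio between the nearest libraries, without that rule, the top 25 reached 11.7 for rises (median 8.71) and -12.3 for falls (median -4.22).

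**Figure D4:**
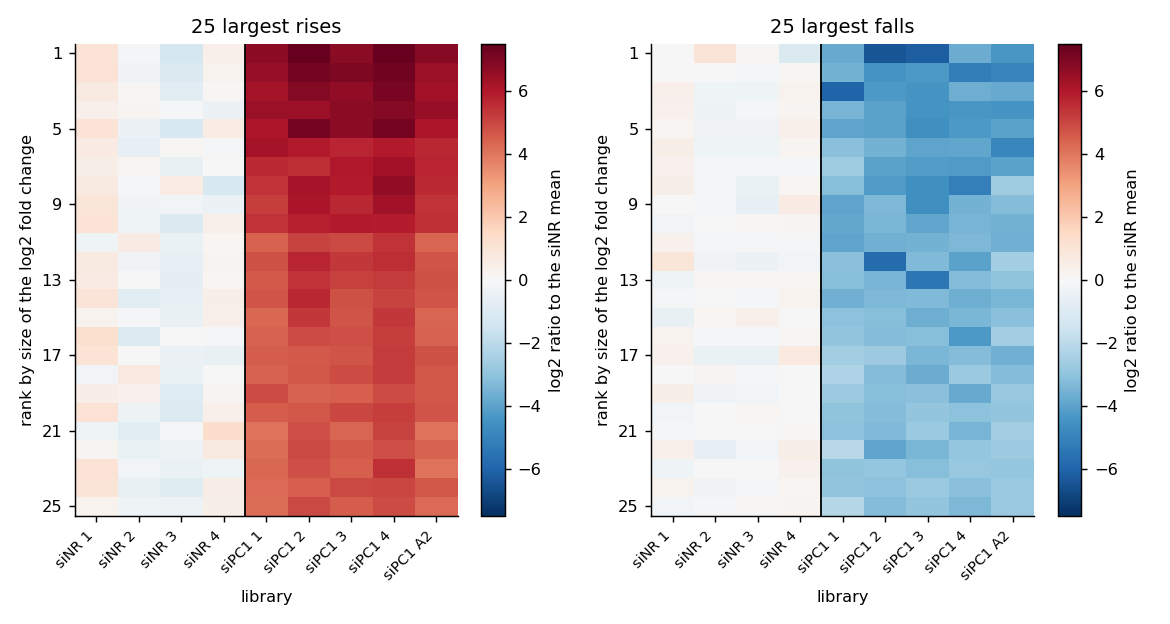
Log2 ratio of the normalized count (1 added) to the siNR mean in each of the 9 libraries for the 25 largest rises (left) and 25 largest falls (right), ranked by size, with red above and blue below the siNR mean. Library medians of the rises run from 4.73 to 5.44 and those of the falls from -3.69 to -3.13 in the siPC1 libraries.

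The transcripts with the largest test statistic were of another kind, moderate in fold and abundant. The 25 with the strongest evidence of a rise had log2 fold changes of 1.39 to 6.64 (median 2.01), 20 of them lay between 1000 and 5000 and 5 at 5000 and above, and 1 was also among the 25 largest rises. The 25 with the strongest evidence of a fall ranged from -4.20 to -1.10 (median -2.41), with 4 between 200 and 1000, 16 between 1000 and 5000 and 5 above, and 3 were also among the largest falls. Size and certainty of change thus picked largely separate sets.

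The same transcripts were read in the groups that share the siNR controls. Against siNR, the 25 largest siPC1 rises had a median log2 fold change of 4.52 with siPC2 (2.72 to 6.92) and of 5.67 with siPC1+siMRTFA (3.15 to 8.10). The 25 largest siPC1 falls had medians of -2.51 with siPC2 (-6.35 to 0.83) and -3.22 with siPC1+siMRTFA (-7.38 to -1.98). Every value for the rises was above 0 in both groups, while the values of the falls with siPC2 lay on both sides of 0. Because all these comparisons use the same 4 control libraries, they are set side by side only.

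Among called transcripts that separated the groups and were counted in all 9 libraries, ENSSSCT00000058978.3 showed the largest rise. Its normalized counts were 33.9, 15.1, 5.73 and 20.9 in siNR replicates 1 to 4, and 1771, 3042, 1831, 3839 and 1948 in siPC1 replicates 1, 2, 3, 4 and A2. It was low in all controls and high in all siPC1 libraries, and the groups did not overlap, with a ratio of 50.7 between the nearest libraries. The means were 18.9 ± 11.8 (SD, n = 4) and 2486 ± 918 (SD, n = 5), a log2 fold change of 7.08 with a standard error of 0.39 (edgeR's quasi-likelihood test, adjusted p = 9.44e-11). The normalized count averaged 2257 with siPC2, 4068 with siPC1+siMRTFA and 3370 with siPC2+siMRTFA, and the difference between siPC1 and siPC2 did not pass the test (log2 0.15, SE 0.28, edgeR adjusted p = 0.78).

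The rise with the largest test statistic was that of ENSSSCT00000002741.5, which ranked 185th by size within the same limits. It stood at 540, 510, 471 and 472 normalized counts in the siNR libraries and at 2868, 3160, 2994, 3097 and 3029 in the siPC1 libraries. The siPC1 values were tightly grouped, the shallow replicate 1 included, and the groups did not overlap, with a ratio of 5.31 between the nearest libraries. The means were 498 ± 33.1 (SD, n = 4) and 3030 ± 111 (SD, n = 5), with a log2 fold change of 2.61 and a standard error of 0.05 (edgeR adjusted p = 1.21e-15). With siPC2 the mean was 2269, and the difference of 0.42 on the log2 scale between siPC1 and siPC2 passed the test (SE 0.05, edgeR adjusted p = 1.11e-05). With siPC1+siMRTFA the mean was 2622, a log2 difference of -0.21 from siPC1 alone (SE 0.05, edgeR adjusted p = 0.00819). Any difference in total siRNA concentration between these groups cannot be told apart from the target.

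Among the falls, ENSSSCT00000029285.4 had the largest test statistic, and its counts were whole numbers in all 9 libraries. By size it ranked 10th among the called falls that separated the groups and were counted in all 9 libraries. Its normalized counts were 1985, 2231, 2424 and 2600 in the siNR libraries and 157, 213, 151, 205 and 192 in the siPC1 libraries. All siPC1 libraries were low and all siNR libraries high, with a ratio of 9.26 between the nearest. The means were 2310 ± 264 (SD, n = 4) and 183.5 ± 28.3 (SD, n = 5), a log2 fold change of -3.63 with a standard error of 0.10 (edgeR adjusted p = 3.54e-14). This fall was much larger with siPC1 than with siPC2, where the mean was 1541 and the log2 fold change against siNR -0.58. The difference of -3.04 between siPC1 and siPC2 passed the test (SE 0.10, edgeR adjusted p = 4.12e-12). With siPC1+siMRTFA the mean was 213.5, and the difference from siPC1 alone did not pass (log2 0.20, SE 0.10, edgeR adjusted p = 0.28).

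The largest fall within the same limits, that of ENSSSCT00000008962.4, was less certain. Normalized counts were 228, 441, 241 and 107 in the siNR libraries and 15.7, 1.68, 2.07, 16.5 and 10.1 in the siPC1 libraries. The siNR libraries differed widely among themselves, but the groups did not overlap, and the nearest libraries had a ratio of 6.15. The means were 254 ± 138 (SD, n = 4) and 9.203 ± 7.13 (SD, n = 5), a log2 fold change of -4.91 with a standard error of 1.12 (edgeR adjusted p = 0.00128). The siPC1 values rested on 2.03 to 11.7 estimated reads per library. The mean over the 20 libraries was 55.5, close to the minimum of 50, and the call was lost through this minimum with DESeq2 and without siNR replicate 1, 2 or 3, although the log2 fold change stayed between -5.73 and -4.50 in 15 alternatives.

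**Figure D5:**
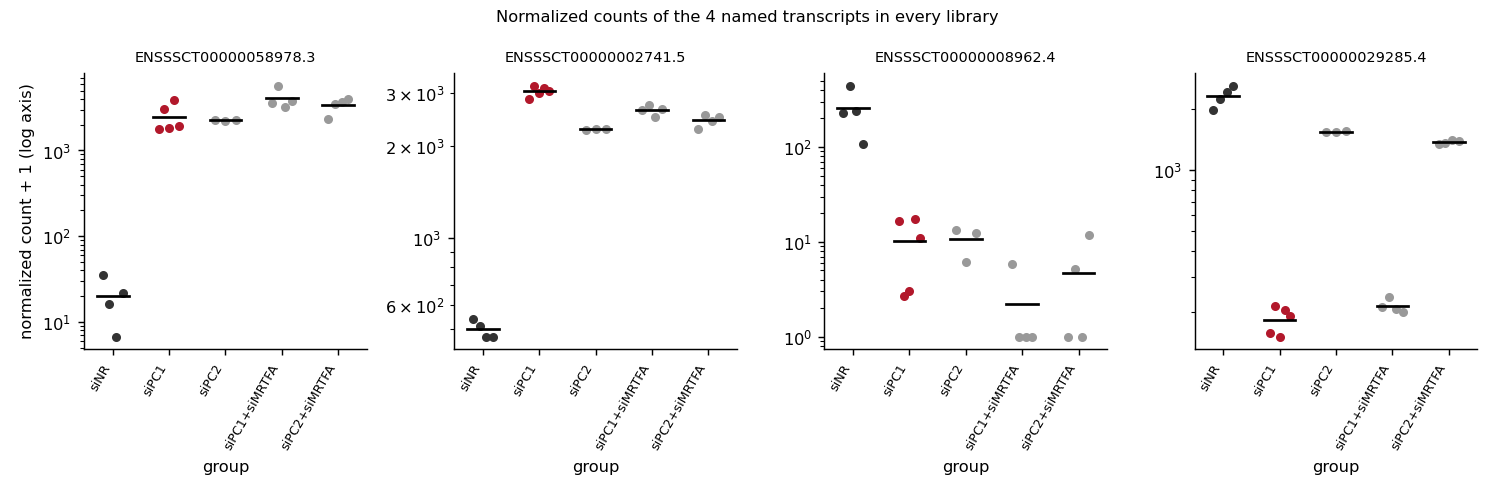
Normalized counts (1 added, log axis, a separate scale for each transcript) of the 4 identified transcripts in every library of the 5 groups, with siNR in black, siPC1 in red and the other groups in grey; a horizontal line marks the group mean. ENSSSCT00000029285.4 averages 183.5 with siPC1 and 1541 with siPC2, whereas ENSSSCT00000058978.3 averages 2486 and 2257.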

How the data were processed

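RNA-Seq was analysed in 20 libraries of LLC-PK1 cells, 4 siNR (200 nM siRNA), 5 siPC1 (150 nM), 3 siPC2 (100 nM), 4 siPC1+siMRTFA and 4 siPC2+siMRTFA, grouped by their labels. The submitters' processing notes name FastQC 0.11.8, Trim Galore 0.6.3, Salmon 0.14.1 and Sscrofa11.1. The authors deposited Salmon's estimated counts per transcript against the pig coding sequences, without normalization, so that reads in untranslated regions were not counted and reads shared by transcripts were divided by estimation. Single-read and paired-end runs are both mentioned, without saying which library had which.

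After rounding, the counts were tested with edgeR 4.0.16 under R 4.3.3. Of 46295 transcripts filterByExpr kept 27702. One quasi-likelihood model of the 5 groups with TMM factors was fitted, and calls required an adjusted p no higher than 0.05, a log2 fold change beyond 0.6 in either direction and 50 normalized counts on average. Standard errors were derived from the F statistic. In each direction, the 2 identified transcripts were, among called ones whose groups do not overlap, that with the largest change counted in all 9 libraries and that with the largest statistic. The thresholds and rules were chosen with earlier results of these data known. Library measures were compared by exact two-sided permutation tests, doubling the smaller tail. Alternatives were DESeq2 1.42.0, library totals, other filters and thresholds, glmTreat, a model of 9 libraries, classes by other means or of equal size, a replicate block, each library left out and, chosen after seeing the data, siPC1 replicates 1 and 4 left out together. The edgeR and DESeq2 fits were run on simulated data with far fewer changed transcripts than were called here, raised and lowered in equal numbers. The dependence on scaling was not tested by that simulation. No pair of replicates agreed within sampling noise (chi-square per degree of freedom at least 9.34). The number of columns not used was 0. Gene names, sums per gene and siRNA sequences were not analysed here.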

Additional observations from a re-analysis of the deposited data

Results flagged for a closer look

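Among 24 sets of 4 to 10 libraries or values tested for a value far from the others, 1 stood apart, where chance alone gives about 1 in 20. After thinning to equal depth, siNR replicate 1 held 25992 transcripts with at least 1 count, compared with 25034 to 25127 in the other siNR libraries.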

How the results depend on the processing

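Counts of raised and lowered transcripts stayed within 1.5 times of their value with DESeq2, library totals, other filters and the model of 9 libraries (3948 to 5090 raised, 2790 to 4225 lowered), and with each library left out (3907 to 4289 and 3474 to 3775). They depended most on the fold threshold. Without it 6195 transcripts were raised and 5649 lowered, and glmTreat left 2636 and 2246. In the model of 9 libraries, edgeR adjusted p-values were higher for ENSSSCT00000058978.3 (3.56e-06), ENSSSCT00000002741.5 (9.72e-08) and ENSSSCT00000029285.4 (2.72e-07). For ENSSSCT00000008962.4 the edgeR adjusted p was lower in that model (0.000455). The replicate block gave 4129 raised and 3727 lowered, but equal numbers do not pair these libraries, since deviations of same-numbered siNR and siPC1 libraries correlated by 0.04 to 0.14 and 0 of 4 siNR libraries correlated best with their own number. The siPC1 minus siNR difference in the share of the 20 most abundant transcripts ranged from -1.77 to -1.22 percentage points with each library left out, and was past 0.05 unadjusted in 2 of 9 of these fits. The difference in transcripts detected at equal depth, -433, became 101.7 with at least 5 counts and ranged from -687 to 71.5 with each library left out, the latter without siPC1 replicate 1. Fold changes of the rare transcripts were the least certain, with a median standard error of 0.95 on the log2 scale under 50 normalized counts. The part of depth in this was not tested.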
